A study of Mus musculus with 20 samples.

Results

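Endothelial cells line the blood vessels and the inner surface of the heart, and 34 genes known to mark them were followed in ageing mouse heart. The genes were picked by symbol, and each was read from probe sets that the array annotation assigns to 1 gene. Of the 58 probe sets that name these genes, 51 passed a filter on low signal. All 34 genes therefore entered the test, among 9275 genes in all. The study, whose title concerns mitochondrial genes, used Affymetrix MOE430 2.0 arrays on ventricle RNA of C57BL/6J males. It compared 10 old mice of 25 to 28 months with 10 young mice of 4 to 6 months, with 1 array for each mouse and no genotype or treatment other than age. The design text calls both ages young, which was read as a slip because the titles and the protocol tell them apart. Old arrays carry the labels' replicate numbers 1 to 10 and young arrays 11 to 20.

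Capillary endothelium in heart muscle passes water, gases, fatty acids and glucose to the myocytes, whereas the endothelium of larger vessels and the endocardium, which lines the chambers, meets fast flow and releases clotting factors. Endothelial identity is held by transcription factors of the ETS and SOXF families, and survival by receptors for vascular endothelial growth factor (VEGF) and angiopoietins. The 34 genes were grouped by role into 12 junction and adhesion proteins, 6 growth factor receptors, 5 transcription factors, 4 genes of signalling and caveolae, 4 capillary genes and 3 large-vessel or endocardial genes. In whole tissue, fewer cells of a type and less RNA in each cell cannot be told apart.

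The tissue label was checked against marker genes. None of the 5 ventricular muscle markers (Myl2, Myh6, Tnnt2, Actc1 and Irx4) was called, though 1 was called lower after quantile normalization. All but Irx4 lay near the top of the scale in both groups. Irx4 had the lowest difference, -0.58, with 4.87 and 4.98 in old replicates 8 and 9 and 6.01 as the lowest young value. Transcripts of atrial muscle stood out in old arrays. Myl7, the atrial myosin light chain, ran from 2.36 to 14.55 on the log2 scale in old arrays and from 2.38 to 2.44 in young arrays. It exceeded 10 in 7 old arrays and in no young array, so the old arrays without strong atrial signal were replicates 1, 2 and 7, of which replicates 2 and 7 had 8.27 and 6.58. An atrial index (linear signals of Myl7 and of Sln, each scaled to its highest array, then averaged) served as a covariate beside the results. The main counts were repeated without those 7 arrays. The arrays also fell into 5 sets of 2 old and 2 young arrays that shared residual variation. These sets were found by clustering the same values and no label names them. A fit that uses the set as a block removes variance that the clustering picked out, so its p-values can come out too small. Array medians lay between 3.07 and 3.20.

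Age differences in the endothelial genes went both ways. The 3 listed large-vessel or endocardial genes were higher in old hearts, and 3 of the 4 listed capillary genes were lower. Of those 3 capillary genes, only Aqp1 was also called with the atrial index or without the 7 arrays. Most of the general endothelial markers did not pass the test. With limma over all 9275 genes and an adjusted p under 0.05, 7 of the 34 genes rose (Vwf, Plvap, Eng, Tmem100, Clec14a, Sox17 and Emcn), 4 fell (Aqp1, Cldn5, Car4 and Rgcc) and 23 were not called. That is 32.4% of these genes, beside 18.7% of all genes tested. Among all genes 11.2% were called higher and 7.49% lower. The median log2 difference, old minus young, was 0.17 over the 34 genes and 0.01 over all genes. Over all called genes the share called higher was 59.9%, and it was 43.2% after quantile normalization and 68.6% after centring each array on its median. Neither scaling changed the direction of any of the 11 genes. Quantile normalization ended the call of Emcn (adjusted p = 0.0671), and median centring ended that of Cldn5 (adjusted p = 0.0585) and added Sox18 (adjusted p = 0.0496).

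**Figure D1:**
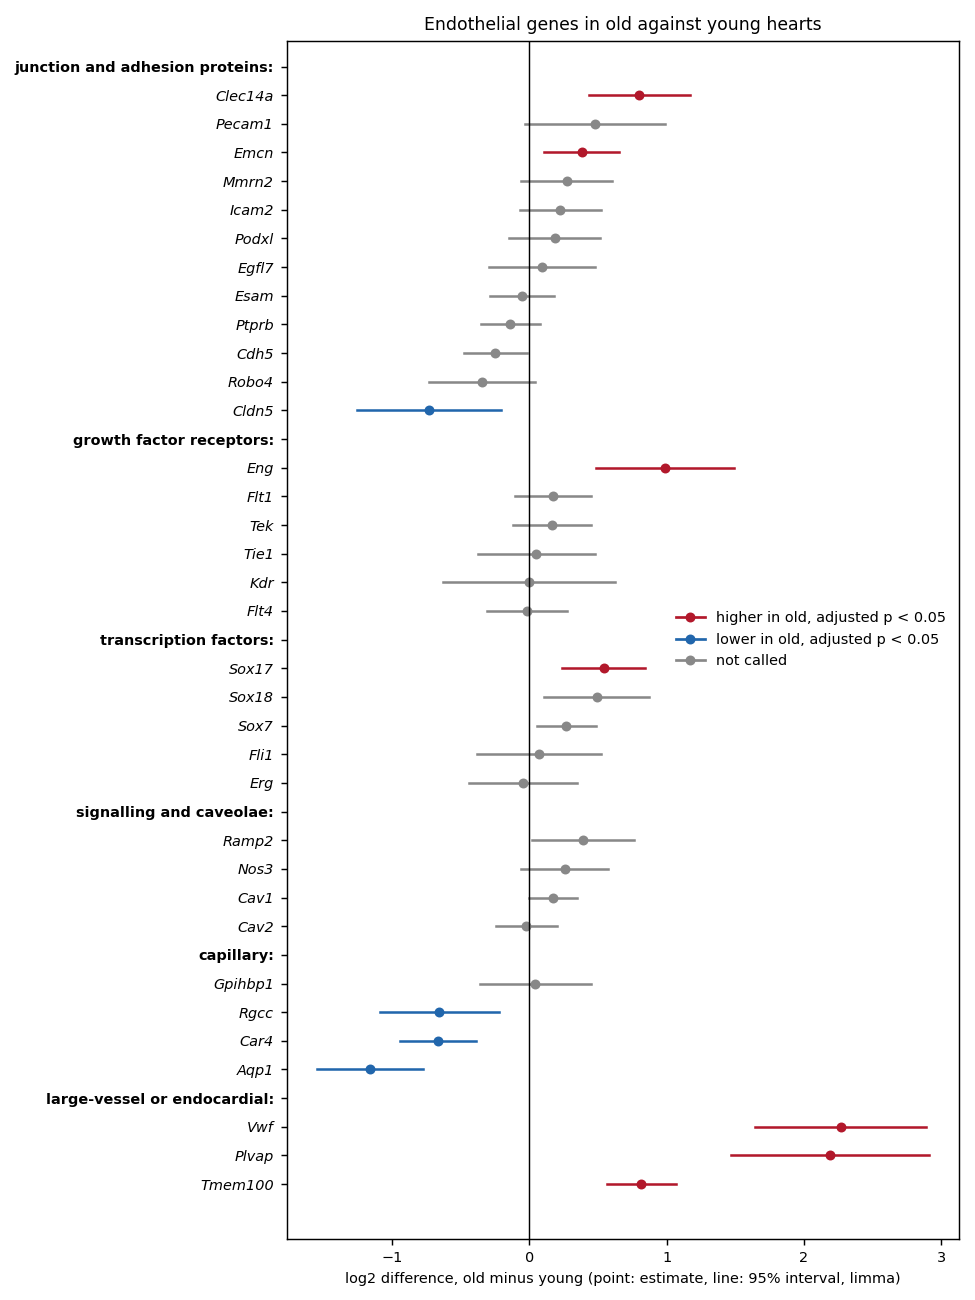
Log2 difference, old minus young, of the 34 endothelial genes, grouped by role on the vertical axis. Points are limma estimates and lines are 95% intervals (10 old and 10 young arrays), red for the 7 genes called higher, blue for the 4 called lower and grey for the 23 not called, and the 3 large-vessel or endocardial genes lie right of 0 while 3 of the 4 capillary genes lie left of it.

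The 3 large-vessel or endocardial genes all rose. Vwf encodes von Willebrand factor, the adhesive glycoprotein that endothelial cells store and release for platelet capture. Its log2 signal ran from 8.58 through a median of 9.59 to 11.11 in old arrays and from 6.57 through 7.26 to 8.51 in young arrays. Every old array was above every young array. The difference was 2.27 (SE 0.30, 4.81-fold, adjusted p = 1.77e-05 by limma), and it lay between 1.01 and 3.48 within the 5 array sets. Over all genes, 1.78% had groups that did not overlap, in either direction.

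Plvap encodes the protein of the diaphragms that span endothelial fenestrae and caveolae, and in the heart it marks the endocardium and vessels other than tight capillaries. The log2 signal of Plvap was 4.91 at the lowest, 6.63 at the median and 8.02 at the highest in old arrays, against 3.41, 4.36 and 5.41 in young arrays. In 8 of 10 old arrays it was above every young array, and the other two, replicates 1 and 7, had 5.38 and 4.91. The log2 difference was 2.19 (SE 0.35, 4.56-fold, adjusted p = 0.000151). Plvap exceeded the filter limit of 4 in 10 old and 7 young arrays, so old arrays alone met the filter. Its young values lay close to that limit. The 3 old arrays with Myl7 at or below 10 held the 3 lowest old values, 4.91 to 5.51, and the other 7 spanned 6.15 to 8.02.

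Tmem100 encodes a membrane protein induced by bone morphogenetic protein (BMP) signalling in arterial endothelium and endocardium. It measured 8.41, 8.84 and 9.35 (lowest, median, highest log2 signal) in old arrays and 7.67, 8.03 and 8.58 in young arrays. Of the old arrays, 9 were above every young array, and replicate 3 was the exception. The difference was 0.82 (SE 0.12, 1.76-fold, adjusted p = 6.79e-05).

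These rises went along with those of some other marker lists, whose counts stand beside 11.2% of all genes tested called higher. The arterial or venous list was less changed, with 1 of 5 tested genes, Nr2f2, called. Of 4 further endocardial genes tested, 3 were higher in old arrays: the natriuretic peptide receptor Npr3 by 2.44 (adjusted p = 3.23e-07), the secreted cytokine-like protein Cytl1 by 2.43 (adjusted p = 2.73e-05) and the transcription factor Foxc1 by 1.26 (adjusted p = 0.000924). Npr3 and Cytl1 were also called with the index and without the 7 arrays, whereas Foxc1 was not, at 0.92 (adjusted p = 0.0937) and 0.61 (adjusted p = 0.213). Foxc1 exceeded the filter limit of 4 in 10 old and 5 young arrays, and its young values were 3.76 to 4.85. Nfatc1, a transcription factor of endocardial and valve development, had a difference of 0.42 (adjusted p = 0.108), and Hapln1 did not pass the filter. The mean level of the 5 endocardial markers was 5.52 to 6.81 in old arrays and 4.37 to 5.29 in young arrays. Platelets and their precursors also make von Willebrand factor. Of 9 platelet genes 5 (Itga2b, Itgb3, Gp9, Gp6 and Treml1) were below the filter. Clec1b and Gp1bb passed it through old arrays, since Clec1b exceeded the limit of 4 in 10 old arrays and 0 young arrays and Gp1bb in 10 old and 1 young. Their differences were 4.16 and 3.23, and those of Ppbp and Pf4, which exceeded 4 in every array, were 3.53 and 1.53. The mean level of the 9 platelet genes was 3.39 to 4.07 in young arrays and 4.23 to 8.43 in old arrays. Old replicate 9 alone had the 8.43, and it also held the highest value of Vwf, 11.11, while the next highest platelet level was 6.23. Without that array the Vwf difference was 2.11 (adjusted p = 2.58e-05). Of the 7 atrial muscle markers, 4 were tested and all 4 rose, and the mean level of the 7 was 4.57 to 12.15 in old and 4.34 to 5.01 in young arrays. The part of endocardial, platelet or atrial RNA in the rises of Vwf, Plvap and Tmem100 was not tested. The index was built from Myl7 and Sln alone, and it was at most 3e-04 in young arrays. Clec1b, Gp1bb, Ppbp and Pf4 had differences of 4.08, 3.21, 3.59 and 1.32 with the index. Without the 7 arrays they had 3.93, 3.23, 3.56 and 1.33. Npr3 had 1.91 and 1.97 in these fits.

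Adjusted for the atrial index, the differences were 1.83 for Vwf (adjusted p = 0.00736), 1.04 for Plvap (adjusted p = 0.0289) and 0.63 for Tmem100 (adjusted p = 0.0191). Without the 7 arrays, which leaves 3 old mice, the difference of Vwf was 1.66 (adjusted p = 0.0184) and that of Tmem100 0.63 (adjusted p = 0.0454). Plvap then fell short of the threshold at 0.91 (adjusted p = 0.153).

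Of the 4 capillary genes, 3 fell and Gpihbp1 was not called. Aqp1 encodes aquaporin 1, the water channel of capillary membranes. Its log2 signal was 8.89, 9.87 and 10.63 (lowest, median, highest) in old arrays and 10.39, 11.05 and 11.34 in young arrays. Of the old arrays, 8 lay below every young array, and replicates 6 and 7 reached above the lowest young array, replicate 11. The difference was -1.16 (SE 0.19, adjusted p = 0.000165), a level 2.23-fold lower in old hearts, and it was -1.17 with the atrial index (adjusted p = 0.00956) and -1.22 when the 7 arrays were left out (adjusted p = 0.0229).

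Car4 encodes carbonic anhydrase 4, which is tethered to the luminal face of capillaries and converts carbon dioxide and bicarbonate. The values of Car4 were 6.53, 7.56 and 7.72 in old arrays against 7.75, 8.03 and 8.39 in young arrays, in the same order. Every old array was below every young array, with a narrow gap between the groups. The difference was -0.67 (SE 0.13, 1.59-fold lower, adjusted p = 0.00139), and the second probe set of this gene gave -0.84. The call was lost with the atrial index, at -0.58 (adjusted p = 0.0706). It was also lost when the 7 arrays were dropped, at -0.46 (adjusted p = 0.0991).

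Rgcc encodes a regulator of the cell cycle that is used as a marker of heart capillaries. It measured 9.81, 10.63 and 11.84 in old arrays and 10.87, 11.37 and 11.86 in young arrays. Of the old arrays, 5 were below every young array, and old replicate 8 was close to the highest young array. The difference was -0.65 (SE 0.21, adjusted p = 0.0328), a level 1.57-fold lower, and its second probe set gave -0.58. Rgcc was the least steady of the 3. The old arrays with Myl7 at or below 10 held 11.06 to 11.24, and without the other 7 the difference was -0.19 (adjusted p = 0.625). With the atrial index it was -0.36 (adjusted p = 0.491), and the call held in 12 of 20 fits that left out 1 array.

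Gpihbp1 encodes the protein that carries lipoprotein lipase across capillary endothelium. Its signal was 8.51, 9.81 and 10.78 in old arrays and 9.28, 9.75 and 10.27 in young arrays. Old arrays held both the lowest and the highest value, replicates 8 and 5, so the groups overlapped fully. The difference was 0.04 with a 95% interval from -0.36 to 0.45 (adjusted p = 0.907).

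**Figure D2:**
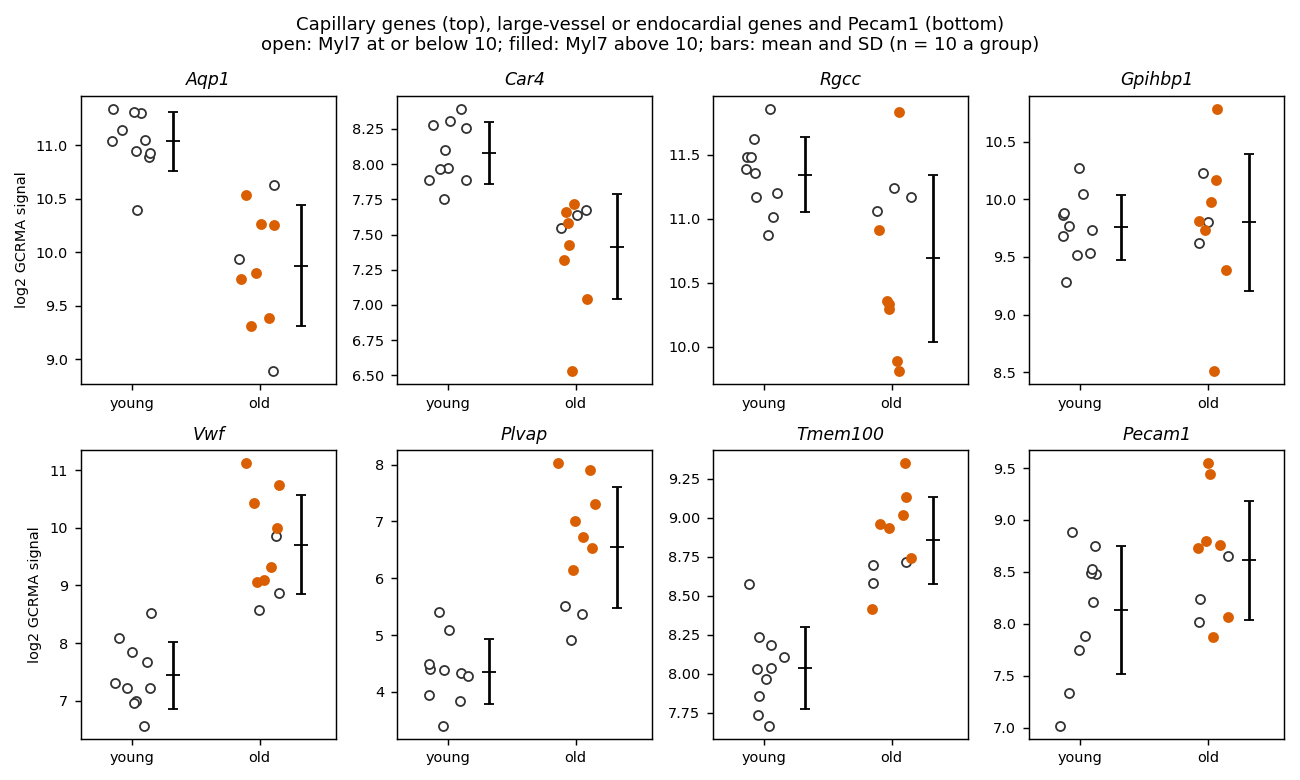
Log2 signal in each array of the 4 capillary genes (top row), the 3 large-vessel or endocardial genes and Pecam1 (bottom row), by age group. Each point is 1 array, filled where Myl7 exceeded 10, and bars give the mean and SD of 10 arrays, and Car4 and Vwf are the 2 genes whose groups do not overlap.

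The mean over the 4 capillary genes and that over the 3 large-vessel or endocardial genes were set against each other within each array. The genes of this contrast were named with their changes known, so it is a description without a test. The capillary mean was 9.44 ± 0.18 (SD, n = 10) in old arrays and 10.05 ± 0.14 (SD, n = 10) in young arrays. The large-vessel or endocardial mean was 8.37 ± 0.60 (SD, n = 10) in old and 6.61 ± 0.32 (SD, n = 10) in young arrays. Their difference, capillary minus large-vessel, ran from 0.26 through 0.77 to 2.25 in old arrays and from 2.86 through 3.39 to 3.90 in young arrays. The old arrays were thus all below the young arrays, and the change of this within-array difference was -2.37 (SE 0.24). It lay between -3.14 and -1.79 within the 5 array sets.

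Among old arrays the capillary minus large-vessel difference was smaller, and so further from young arrays, where Myl7 exceeded 10. Replicate 3, with Myl7 at 12.13, hardly differed from replicate 1, at 1.559 against 1.57. Replicates 1, 2 and 7 had 1.57, 2.01 and 2.25, above the 0.26 to 1.56 of the other old arrays. With those 3 old arrays alone the change was -1.50, and with the atrial index it was -1.66. Of the 12 pairs of a capillary with a large-vessel gene, the change was greatest for Aqp1 against Vwf at -3.43 and smallest for Gpihbp1 against Tmem100 at -0.77.

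**Figure D3:**
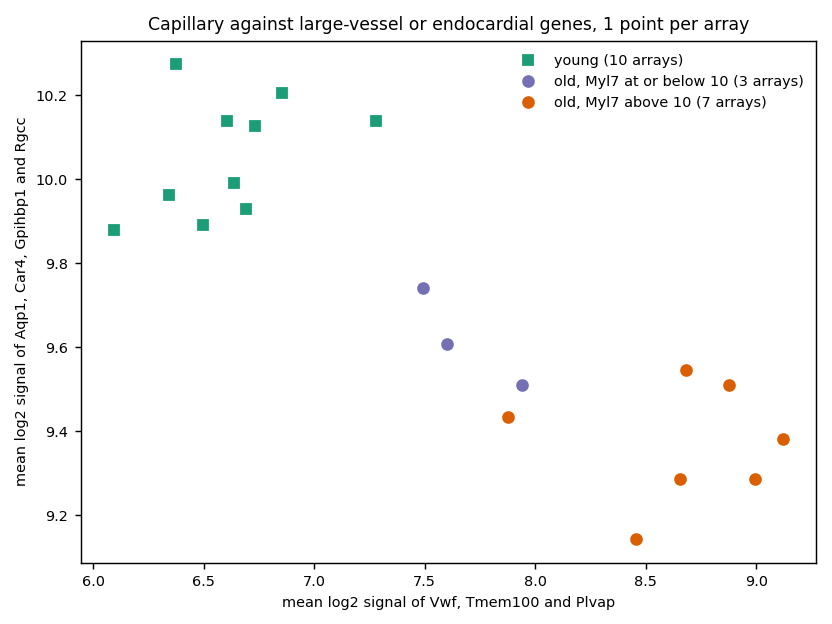
Mean log2 signal of Aqp1, Car4, Gpihbp1 and Rgcc (vertical) against that of Vwf, Tmem100 and Plvap (horizontal), 1 point for each of the 20 arrays. Young arrays (squares) lie at 9.88 to 10.27 on the vertical axis, old arrays at 9.14 to 9.74, and the 3 old arrays with Myl7 at or below 10 lie between the young arrays and most of the other 7.

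Among the 12 junction and adhesion proteins, 2 rose, 1 fell and 9 were not called, with a median difference of 0.14. The share called was 25.0%, beside 18.7% of all genes. Clec14a, a C-type lectin of sprouting endothelium, measured 6.21, 7.01 and 7.79 in old arrays and 5.85, 6.35 and 6.88 in young arrays. In 6 of 10 old arrays it exceeded every young array. The difference was 0.80 (SE 0.18, 1.74-fold, adjusted p = 0.00307), and the second probe set of Clec14a gave 0.72. The estimate stayed close to this with the atrial index, at 0.71 (adjusted p = 0.0950), and among the arrays left without the 7, at 0.75 (adjusted p = 0.119), but neither passed the threshold. It was called, at 0.84, with set and index together (adjusted p = 0.0378).

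Emcn encodes endomucin, a sialomucin of venous and capillary surfaces and of the endocardium. Its log2 signal was 8.999, 9.43 and 9.99 in old arrays against 8.75, 9.05 and 9.51 in young arrays. Only 3 old arrays were above every young array. The difference was 0.38 (SE 0.13, adjusted p = 0.0474), and this call held in 5 of 20 fits that left out 1 array. It was 0.11 with the atrial index (adjusted p = 0.748) and 0.22 when the 7 arrays were dropped (adjusted p = 0.518).

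Cldn5 encodes claudin 5, the main tight junction claudin of endothelium. It measured 4.56, 6.34 and 6.87 in old arrays and 6.13, 6.95 and 7.24 in young arrays. The lowest values were 4.56 and 4.90 in old replicates 8 and 7, whose array set also held the lowest young values, 6.13 and 6.15. The difference was -0.73 (SE 0.25, 1.66-fold lower, adjusted p = 0.0471), and the call held in 7 of 20 fits that left out 1 array. The estimate was larger with the atrial index, at -1.04 (adjusted p = 0.0748), and without the 7 arrays, at -0.90 (adjusted p = 0.135), yet not called. With set and index together Cldn5 had -1.01 and was called (adjusted p = 0.00287).

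Pecam1, the platelet and endothelial adhesion molecule often used to count vessels, was not called. It measured 7.87, 8.69 and 9.54 in old arrays and 7.02, 8.34 and 8.88 in young arrays. The difference was 0.48 (SE 0.25, 95% interval -0.03 to 0.99, adjusted p = 0.183). Within each of the 5 array sets the old arrays were higher on average, by 0.28 to 0.79. With the set as a block the adjusted p was 0.000211 by limma. That value can be too small, because the sets were found in these same values. Pecam1 is also present on platelets, whose markers rose as given above, and their part in this difference was not tested.

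Cdh5, the VE-cadherin of adherens junctions, measured 7.15, 7.96 and 8.16 in old arrays and 7.83, 8.15 and 8.41 in young arrays. The groups overlapped, and the difference was -0.25 (95% interval -0.48 to -0.02, adjusted p = 0.126). Robo4, a roundabout-family receptor that stabilises vessels, had the lowest difference of the uncalled genes, -0.35 (adjusted p = 0.206). The junction protein Esam had -0.05 (adjusted p = 0.786) and the phosphatase Ptprb, which acts on the angiopoietin receptor and VE-cadherin, -0.14 (adjusted p = 0.389). The other differences were 0.27 for the matrix protein Mmrn2 (adjusted p = 0.251), 0.23 for the leukocyte ligand Icam2 (adjusted p = 0.286), 0.19 for the sialomucin Podxl (adjusted p = 0.456) and 0.09 for the secreted factor Egfl7 (adjusted p = 0.777). The passing probe sets of Egfl7 disagreed in sign, from -0.25 to 0.13.

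Of the 6 growth factor receptors, Eng rose and 5 were not called (16.7% called, beside 18.7% of all genes). Eng encodes endoglin, the co-receptor through which endothelium senses BMP9 and transforming growth factor beta. It measured 7.75, 8.995 and 9.54 in old arrays and 6.66, 7.82 and 8.45 in young arrays. Of the old arrays, 7 were above every young array. The difference was 0.99 (SE 0.24, 1.98-fold, adjusted p = 0.00664), and the second probe set gave 1.09, at 8.69 ± 0.32 in old against 7.60 ± 0.13 in young arrays (SD, n = 10 each). Its difference was 0.56 with the atrial index (adjusted p = 0.312) and 0.30 once the 7 arrays were dropped (adjusted p = 0.666). With the array set and the index in 1 fit it was 0.87 and called (adjusted p = 0.0045).

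The VEGF receptors had differences near 0. Kdr, the main signalling receptor for VEGF-A, measured 6.49, 8.72 and 9.25 in old arrays and 7.32, 8.60 and 9.23 in young arrays. Its difference was -0.00396 with a wide 95% interval, -0.63 to 0.62 (adjusted p = 0.994). The 4 lowest values all came from 1 array set, at 7.49 and 6.49 in old replicates 7 and 8 and 7.32 and 7.59 in young replicates 18 and 19, and the next lowest array had 8.34. Flt1, which also exists as a soluble decoy receptor, had a difference of 0.17 (adjusted p = 0.395), and its 4 passing probe sets ran from -0.13 to 0.33. Flt4, the receptor of lymphatic growth factors, had -0.02 (adjusted p = 0.947). The angiopoietin receptor Tek had 0.16 (adjusted p = 0.438) and its partner Tie1 had 0.05 (adjusted p = 0.899).

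Of the 5 transcription factors, Sox17 rose and the others were not called. Sox17, a SOXF factor of arterial endothelium, measured 7.34, 7.74 and 8.34 in old arrays and 6.87, 7.19 and 7.82 in young arrays. The 4 highest old arrays were above every young array. The difference was 0.54 (SE 0.15, 1.46-fold, adjusted p = 0.0122). Its second probe set, which the rule of largest variance takes, gave 0.35 (adjusted p = 0.211). In contrast to Eng, Sox17 had a larger difference with the atrial index, at 0.77 (adjusted p = 0.0189). It was 0.83 when the 7 arrays were left out (adjusted p = 0.0271).

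The other SOXF factors missed the threshold narrowly. Sox18 had a difference of 0.49 (95% interval 0.11 to 0.87, adjusted p = 0.0684) and Sox7 of 0.27 (95% interval 0.05 to 0.49, adjusted p = 0.0762). Both were higher in old arrays in 5 of 5 array sets. The ETS factors Erg and Fli1, which keep endothelial genes active, had differences of -0.05 (adjusted p = 0.901) and 0.07 (adjusted p = 0.859).

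None of the 4 genes of signalling and caveolae was called. The receptor partner Ramp2, needed for adrenomedullin signalling, had 0.39 (95% interval 0.02 to 0.76, adjusted p = 0.133). Nos3, the endothelial nitric oxide synthase, measured 5.77, 6.17 and 6.91 in old arrays and 5.42, 5.96 and 6.52 in young arrays, a difference of 0.26 (adjusted p = 0.260). The caveolar coat proteins Cav1 and Cav2 had 0.17 (adjusted p = 0.155) and -0.02 (adjusted p = 0.922). Caveolins are also made by smooth muscle and fat cells.

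Over the 23 genes that were not called, 15 estimates were above 0 and 8 below, from -0.35 to 0.49. Their 95% intervals differed in width, so the size of change that could go uncalled differed from gene to gene. The lowest bound was -0.73, for Robo4, and the highest was 0.99, for Pecam1. Narrower intervals were those of Cav2, -0.25 to 0.20, and Esam, -0.29 to 0.18. The intervals of Cdh5, Sox7, Sox18, Ramp2 and Cav1 did not include 0, but their adjusted p was not under 0.05. The mean level of all 34 genes was 7.97 to 8.65 in old arrays and 8.04 to 8.35 in young arrays. The old arrays thus spanned the whole young range.

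Much of the spread between mice was shared by array set. The share of within-group variance that lay between the 5 sets had a median of 61.6% over the 34 genes and exceeded 50% in 19 of them. It was 93.8% for Pecam1, 89.0% for Mmrn2 and 88.8% for Kdr, but 11.1% for Vwf and 12.9% for Tmem100. For Pecam1, old replicates 5 and 6 had 9.54 and 9.44 and young replicates 15 and 16 of the same set had 8.88 and 8.75. In another set, old replicates 9 and 10 had 7.87 and 8.07 and young replicates 14 and 17 had 7.33 and 7.02. The sets were formed on all tested genes, these included, so the shares are descriptive.

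With the set as a block 17 of the 34 genes were called (50%, beside 36.1% of all genes), 13 higher and 4 lower. The 11 genes called without the block were among them, and the 6 added were Pecam1, Mmrn2, Sox7, Sox18, Nos3 and Ramp2. With the atrial index 5 were called (14.7%, beside 3.74% of all genes): Vwf, Plvap, Tmem100 and Sox17 were higher and Aqp1 lower. Without the 7 old arrays, 4 were called (11.8%, beside 2.93%), which were Vwf, Tmem100, Sox17 and Aqp1. With set and index together 8 were called (23.5%, beside 6.24%), of which Vwf, Plvap, Tmem100, Eng, Clec14a and Sox17 were higher and Aqp1 and Cldn5 lower. All 11 genes kept their direction in these 4 fits. Calls in the fits that use the set are descriptive, since the sets were found in the same values.

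**Figure D4:**
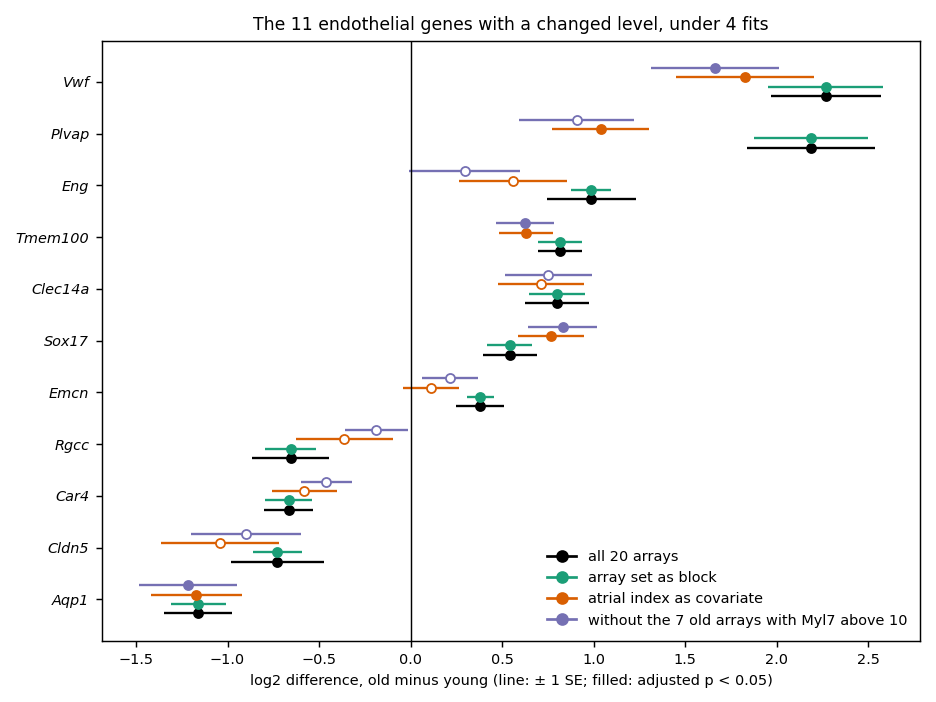
Log2 difference, old minus young, of the 11 genes called in all 20 arrays, under 4 fits shown in 4 colours. Points are estimates and lines 1 SE, filled where the adjusted p was under 0.05. Vwf, Tmem100, Sox17 and Aqp1 are filled in all 4 fits. Once atrial signal is modelled or the 7 arrays are dropped, Eng, Emcn, Rgcc, Plvap, Vwf, Tmem100, Car4 and Clec14a move toward 0. Plvap goes from 2.19 to 1.04 and 0.91.

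Promoter sequence is shown for genes that fell (Aqp1, Car4 and Rgcc) and genes that rose (Eng and Clec14a), so that those which moved one way can be read side by side. RefSeq starts in the build GRCm38.p6 were matched for 17 of the 34 genes. Each run is the 250 bases upstream of the start, 5′ to 3′ on the strand of the gene. Aqp1 is at chr6:55336049-55336298 on the plus strand, Car4 at chr11:84957504-84957753 on the plus strand, Rgcc at chr14:79301636-79301885 on the minus strand, Eng at chr2:32646345-32646594 on the plus strand and Clec14a at chr12:58269259-58269508 on the minus strand. Capitals mark AGGAAG or, on the other strand, CTTCCT, a core that ETS factors such as Erg and Fli1 bind.
Aqp1: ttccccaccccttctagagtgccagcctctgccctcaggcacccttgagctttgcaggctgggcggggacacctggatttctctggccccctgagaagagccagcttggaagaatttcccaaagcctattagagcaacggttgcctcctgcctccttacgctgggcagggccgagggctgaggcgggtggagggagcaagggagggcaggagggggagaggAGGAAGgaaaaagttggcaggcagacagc
Car4: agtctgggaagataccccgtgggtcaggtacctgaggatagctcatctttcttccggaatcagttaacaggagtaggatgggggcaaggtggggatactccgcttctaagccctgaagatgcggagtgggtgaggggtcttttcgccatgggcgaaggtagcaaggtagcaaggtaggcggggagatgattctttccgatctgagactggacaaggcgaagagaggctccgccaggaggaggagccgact
Rgcc: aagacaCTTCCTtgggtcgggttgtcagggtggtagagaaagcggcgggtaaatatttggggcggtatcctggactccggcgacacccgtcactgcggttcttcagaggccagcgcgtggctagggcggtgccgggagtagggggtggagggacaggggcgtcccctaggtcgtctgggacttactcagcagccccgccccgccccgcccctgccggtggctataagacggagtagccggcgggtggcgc
Eng: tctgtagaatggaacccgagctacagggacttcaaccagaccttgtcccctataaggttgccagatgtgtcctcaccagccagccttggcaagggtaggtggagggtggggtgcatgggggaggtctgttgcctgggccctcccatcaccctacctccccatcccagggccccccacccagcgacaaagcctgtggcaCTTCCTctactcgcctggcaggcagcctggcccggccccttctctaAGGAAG
Clec14a: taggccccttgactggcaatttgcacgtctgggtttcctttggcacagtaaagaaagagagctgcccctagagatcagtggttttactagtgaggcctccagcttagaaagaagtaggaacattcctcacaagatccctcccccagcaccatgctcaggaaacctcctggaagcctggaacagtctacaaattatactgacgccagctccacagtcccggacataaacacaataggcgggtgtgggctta

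The ETS-type core occurred in the windows of Aqp1, Rgcc and Eng and was not found in those of Car4 and Clec14a, so genes with and without it occur among those that fell and those that rose. It was present in 9 of the 17 genes with a window (10 of 22 windows, since some genes have several starts), and in 29.5% of all 32851 windows of this length. The shorter core ACAAT or ATTGT, bound by SOX factors and unable to overlap an ETS-type match, occurred in 5 of 17 genes (5 of 22 windows) and in 27.7% of all windows. A match is a description of the letters and not a site in use.

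Other genes of endothelial signalling were read from 7 lists of 59 entries, of which 57 were matched to the array and 54 tested. The arrays called 20 of the 54 (37.0%, beside 18.7% of all genes), 17 higher and 3 lower. The lists for vasoactive peptides (4 of 6 higher) and haemostasis (4 of 6 higher) held the greatest shares called, and none of 9 Notch genes was called, with differences from -0.40 to 0.40. The 12 genes with the smallest p are described in the order of their roles.

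Of 6 tested leukocyte adhesion genes, Icam1 and Vcam1 rose and 4 were not called (33.3% called, beside 18.7% of all genes). Icam1, the integrin ligand of inflamed endothelium, measured 6.10, 6.71 and 7.79 in old arrays and 4.54, 5.01 and 5.58 in young arrays. The difference was 1.73 (SE 0.18, adjusted p = 2.05e-06), and every old array was above every young array. Vcam1, a ligand of monocytes and lymphocytes, measured 8.09, 8.41 and 9.77 against 6.86, 7.19 and 7.81, also with no overlap, and its difference was 1.35 (SE 0.17, adjusted p = 7.99e-06). Sele and Selp did not pass the filter. Of 7 tested macrophage markers 6 rose, beside 11.2% of all genes called higher. Of these markers 3 were called with the atrial index (beside 3.74% of all genes) as well as without the 7 arrays (beside 2.93%). The 8 macrophage genes on the array had a mean level of 7.38 to 8.20 in old and 6.77 to 7.47 in young arrays. Icam1 and Vcam1 are made by other cells too, and the part of macrophages in their rise was not tested.

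Of 6 tested genes of haemostasis at the vessel wall 4 rose, and those described here are Thbd, Plat and Anxa2. Thbd, thrombomodulin, measured 8.53, 8.64 and 8.79 in old arrays and 7.78, 8.08 and 8.51 in young arrays, a difference of 0.54 (SE 0.09, adjusted p = 0.000171). Plat, the tissue plasminogen activator, differed by 0.67 (SE 0.10, adjusted p = 7.11e-05), and Anxa2, an annexin that binds plasminogen and its activator, by 1.02 (SE 0.12, adjusted p = 5.46e-06). For these 3 genes, as for Icam1 and Vcam1, every old array was above every young array. Over all genes 1.78% had no overlap, in either direction. The tissue factor pathway inhibitor Tfpi had -0.36 (adjusted p = 0.0615) and tissue factor, F3, had 0.07 (adjusted p = 0.763), and neither was called.

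In the BMP, flow and lipid mediator list 4 of 10 genes were called (40.0%, beside 18.7% of all genes), all higher. Ptgis, the prostacyclin synthase, ran from 6.59 through 8.21 to 9.67 in old and from 6.12 through 6.65 to 7.10 in young arrays, a difference of 1.67 (SE 0.27, adjusted p = 0.000150). Id3, a target gene of BMP signalling, differed by 0.68 (SE 0.14, adjusted p = 0.00143). The flow-induced factors Klf2 and Klf4 had estimates of -0.34 and -0.26 and were not called.

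Among vasoactive peptide genes, the endothelin receptor Ednrb differed by 0.73 (SE 0.14, adjusted p = 0.000751). Calcrl, the receptor that pairs with Ramp2, differed by 0.62 (SE 0.14, adjusted p = 0.00376). For Ednrb 9 old arrays were above every young array, and for Calcrl 6. The ligand Edn1 had 0.10 and the peptidase Ace -0.01, and neither was called.

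In the VEGF and angiopoietin list 2 of 11 genes rose and 3 fell (45.5% called, beside 18.7% of all genes). Angpt1, the activating ligand of Tek that is made by cells around the vessel, measured 7.19, 8.35 and 9.18 in old arrays against 6.60, 7.05 and 7.75 in young arrays, a difference of 1.18 (SE 0.21, adjusted p = 0.000498). Vegfd, a ligand of Flt4, differed by 1.16 (SE 0.21, adjusted p = 0.000505), but its young arrays lay at 3.22 to 4.43, close to the filter limit of 4, which it passed mainly through old arrays. Aplnr, the apelin receptor of venous and capillary endothelium, measured 6.41, 7.96 and 8.93 in old arrays and 8.03, 9.14 and 9.84 in young arrays, and 6 old arrays were below every young array. It fell by 1.16 (SE 0.28, adjusted p = 0.00621). Its ligand Apln had a difference of -0.78 (adjusted p = 0.0186). Vegfa had -0.34 and was not called (adjusted p = 0.111).

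Of the capillary lipid uptake genes 1 of 6 was called (16.7%, beside 18.7% of all genes). This was the fatty acid binding protein Fabp5, at 0.60 (adjusted p = 0.0367), a call that held in 10 of 20 fits that left out 1 array. It had 0.10 with the atrial index (adjusted p = 0.846) and 0.03 once the 7 arrays were dropped (adjusted p = 0.961). Lpl, the lipase that Gpihbp1 carries, had -0.05, and the fatty acid transporter Cd36 had 0.10. Meox2 and Tcf15, which together drive fatty acid uptake genes in heart capillaries, had -0.35 and -0.15. With the atrial index 7 of the 20 calls on these other genes held, and 8 held without the 7 old arrays. Icam1, Vcam1, Anxa2, Plat, Thbd and Vegfd were called in both fits, Ptgis with the index alone and Angpt1 and Apln without the 7 arrays alone.

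**Figure D5:**
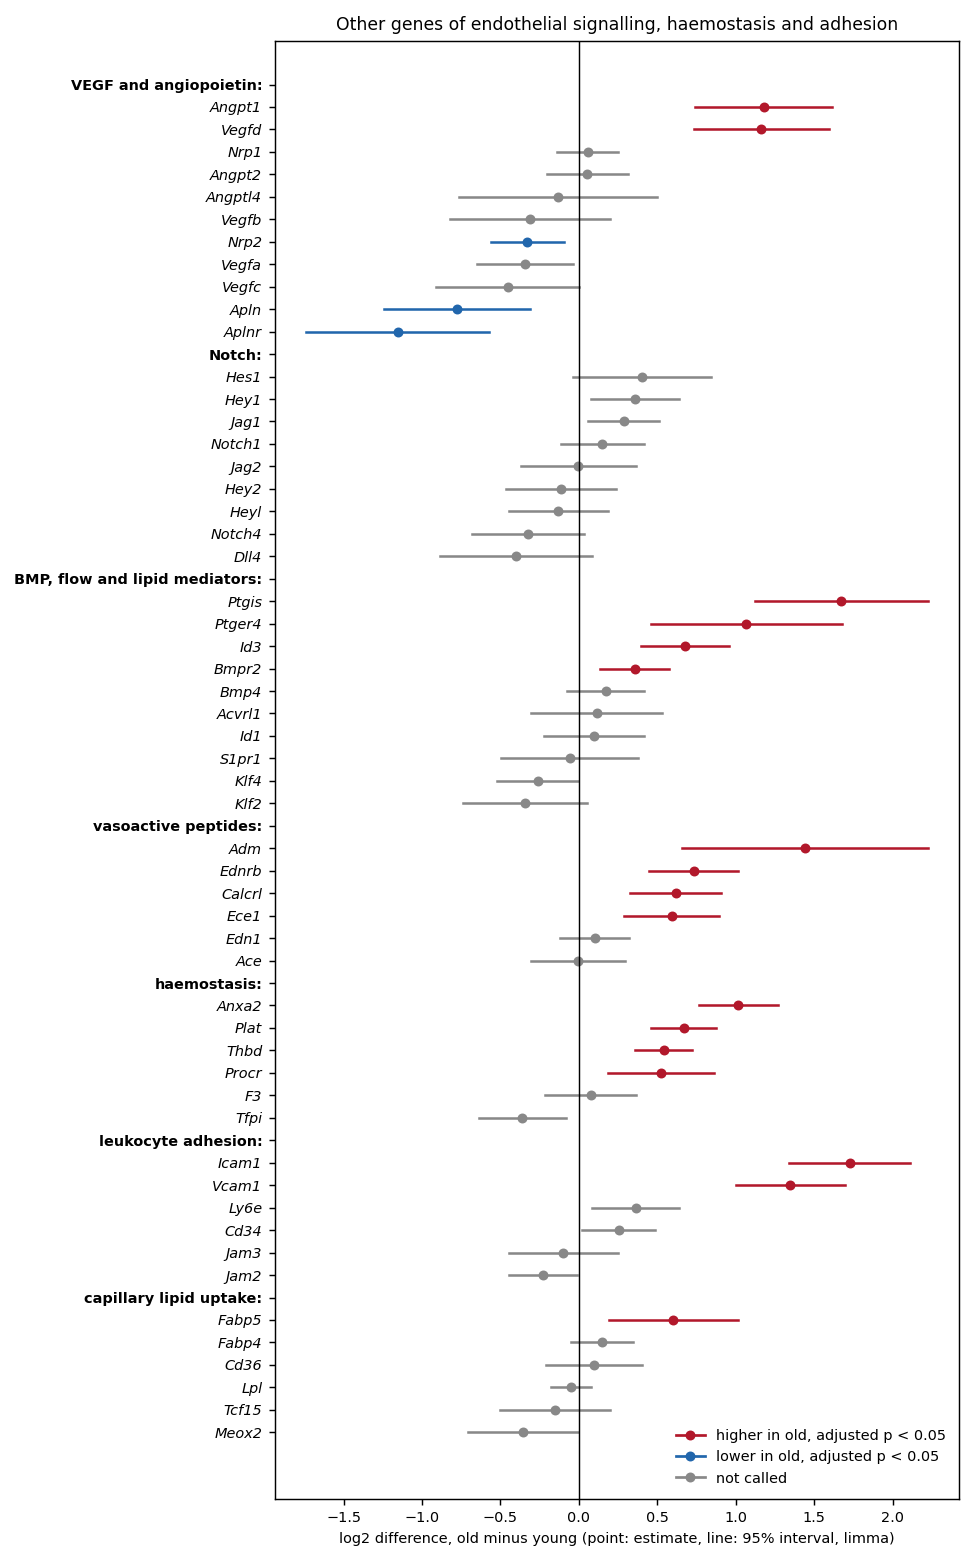
Log2 difference, old minus young, of the 54 tested genes of endothelial signalling, haemostasis and adhesion outside the 34, grouped by list. Points are limma estimates and lines 95% intervals, red for the 17 called higher, blue for the 3 called lower and grey for the rest, and no Notch gene is coloured.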

How the data were processed

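RNA from 20 mouse hearts was measured on 1-colour oligonucleotide arrays, 1 array for each mouse. The deposited table holds log2 values for 45101 probe sets, which per the submitters' processing notes the authors made with GCRMA, a method that corrects background by probe sequence and normalizes between arrays. Its version is not given in the sources used here, and the scale was inferred from their range, 0.98 to 16.0. Undetected transcripts sit at a shared floor under GCRMA, which can shrink or exaggerate the change of a dim gene. As 1-colour arrays give no counts, precision rests on the number of arrays.

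Control probe sets were left out, and 34945 probe sets had 1 gene in the platform annotation. A probe set passed with a log2 value over 4 in at least 10 of 20 arrays. The brightest passing probe set stood for a gene, and 9275 genes remained. Age groups were tested with limma 3.58.1 in R 4.3.3 (lmFit, eBayes, no covariate, Benjamini-Hochberg over all genes), tested on simulated data first. Every adjusted p is from limma, and each p-value sets the difference between the groups against the spread between these arrays. The 34 genes, their grouping, the other gene lists and the alternatives were chosen with earlier results of these data known. Genes outside the 34 are the 12 called with the smallest p in the 7 signalling lists. Further genes of those lists (Klf2, Tfpi, Apln and others) and of the marker lists were named after their values were seen. The marker lists do not hold genes of the 34. Promoter windows came from RefSeq (GRCm38.p6). Alternatives were the scaling, the filter, the choice of probe set, array weights, covariates and arrays left out.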

Additional observations from a re-analysis of the deposited data

Results flagged for a closer look

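In 70 groups of 10 arrays (the 34 genes and the capillary contrast, in each age), 3 held a single value apart from the rest by Dixon's criterion at 95%, which chance alone gives in about 1 in 20 groups. Ptprb had its highest old value in replicate 1, 10.429, with the nearest array at 9.936. Tek had its highest old value in replicate 6, 9.288, with the nearest at 8.804. Aqp1 had its lowest young value in replicate 11, 10.395, with the nearest at 10.89, and this is the young array that 2 old arrays exceeded.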

How the results depend on the processing

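No paired analysis was possible because the labels give old arrays the numbers 1 to 10 and young arrays 11 to 20, so the groups share none. The count of endothelial genes called higher was 7, and it became 3 without the 7 old arrays, 4 with the atrial index, 13 with the array set as a block, 6 with set and index together and 10 with array quality weights. The count called lower was 4, and it became 1 without those arrays, 1 with the index and 2 with set and index together. Leaving out 1 array at a time gave 6 to 8 higher and 2 to 4 lower; the 2 came without old replicate 3, 4 or 5 or young replicate 11, 14 or 20, when Rgcc and Cldn5 were both lost. The 20 other signalling genes called became 8 without the 7 arrays, 7 with the index and 9 with set and index; leaving out 1 array gave 18 to 23. Taking the probe set of largest variance lost Sox17, Cldn5 and Emcn. All genes called, 1732 of 9275 tested (18.7%), became 4345 of 18193 with no filter (23.9%), of which 3044 were lower. The count was 272 without the 7 arrays, 347 with the index, 3344 with the block and 579 with set and index. The median difference, 0.17, was 0.10 with the index. The capillary contrast, -2.37, was -1.50 without the 7 arrays, -1.66 with the index and -1.61 with set and index. It was -2.15 with the filter limit at 6, which Plvap did not pass. The cause of these changes was not tested; the fit without the 7 arrays has fewer samples. None of the 11 called genes changed direction in any setting run, and 14 uncalled ones did in at least one.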

Other observations

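Lymphatic and venous markers were read as lists outside the comparisons above. Of 4 tested lymphatic genes 3 were higher in old arrays, beside 11.2% of all genes called higher. Lyve1, a hyaluronan receptor that resident macrophages also carry, ran from 8.41 to 9.38 in old and from 6.44 to 7.93 in young arrays, a difference of 1.49 (adjusted p = 4.94e-06 by limma). Pdpn, podoplanin, which mesothelium and fibroblasts also carry, differed by 1.65 (adjusted p = 1.65e-05), and Mmrn1, which platelets also store, by 0.62 (adjusted p = 0.0308). Lyve1 and Pdpn stayed called with the atrial index and without the 7 old arrays. Mmrn1 did not, at adjusted p = 0.102 and 0.189, and its call held in 14 of 20 fits that left out 1 array. Prox1, the lymphatic transcription factor that heart muscle also makes, had -0.29 (adjusted p = 0.460).

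Of 5 tested arterial or venous genes only the venous and atrial transcription factor Nr2f2 was called, at 0.70 (adjusted p = 0.00883), and at 0.40 with the atrial index (adjusted p = 0.339). The arterial genes Gja4, Efnb2 and Sema3g had 0.29, 0.05 and -0.19 and were not called. Among 9 pericyte and smooth muscle genes 2 were called (22.2%, beside 18.7% of all genes). Acta2 was higher by 1.16 (adjusted p = 0.0352), a call that held in 11 of 20 fits leaving out 1 array. It had 1.24 with the atrial index (adjusted p = 0.187) and 0.58 once the 7 old arrays with high Myl7 were dropped (adjusted p = 0.598). The pericyte channel subunit Kcnj8 had -0.36 (adjusted p = 0.0422), called in 7 of those 20 fits, and was not called with median centring (adjusted p = 0.0698) or with the index, at -0.28 (adjusted p = 0.364). Pdgfrb had -0.02 (adjusted p = 0.953). Of 5 fibroblast genes 3 were higher, beside 11.2% of all genes called higher. All 3 calls were lost with the index and without the 7 arrays, where Tcf21 went from 0.88 to 0.40 and 0.38. The fibroblast genes had a mean level of 8.77 to 9.61 in old and 8.42 to 8.89 in young arrays. Adipoq, a fat cell gene that did not pass the filter, reached 12.02 in old arrays and at most 2.37 in young arrays.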
